A study of Arabidopsis thaliana with 9 samples.

Results

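Roots of the mutant line hcr1-2 were set against roots of the mutant line hcr1-1, with 3 arrays of each, so that 6 of the 9 arrays of the study entered the comparison. The members were the arrays whose titles name either line, and the other 3 arrays, of Col-0, served as background. The hcr1-2 and hcr1-1 plants are both labelled as HCR1 mutants of the Col-0 ecotype, and the Col-0 plants as the wild type. All 9 samples shared the same treatment. The plants were 21 days old and grew in hydroponics with ample potassium and low oxygen (pO2 11.1 ± 1.1%). The roots of 5 plants were pooled per sample, and 100 ng of their RNA went onto an array. The labels call the samples biological replicates. Each line stands for 1 mutant allele, and the position and kind of its lesion are not stated in the labels, so allele, line and pool cannot be told apart.

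HCR1, short for HYDRAULIC CONDUCTIVITY OF ROOT 1, is the gene AT3G24715. Its product is a kinase of the Raf-like family, and it controls how readily roots conduct water when potassium is ample and oxygen is short. Plant cells that lack oxygen stabilise transcription factors of the ethylene response factor family, which switch on a core set of hypoxia genes for fermentation, nitrogen and calcium handling. Mitochondria use most of the oxygen of a root cell and carry a small genome of their own. In the reference strain a long, near-identical copy of that genome also lies in chromosome 2, among loci whose names begin with AT2G07.

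Signals were log2 values, so a difference of 1 is a doubling of the signal. Differences are given as hcr1-2 minus hcr1-1, and arrays are listed in the order of their replicate numbers, which is otherwise arbitrary. Of 38408 rows in the value table, 16746 carry a single gene name in the array annotation and were tested. By limma's moderated test with Benjamini-Hochberg adjustment over those rows, 0 rows (0%) were called at an adjusted p under 0.05. The lowest adjusted value, 0.719, was shared by 4 rows. At an unadjusted p under 0.05 there were 893 rows (5.33%), where chance alone gives 837.3. Of these, 506 (3.02%) were higher in hcr1-2 and 387 (2.31%) were lower. The 3 hcr1-2 and 3 hcr1-1 arrays did not overlap in 1650 rows (9.85%), with 890 (5.31%) higher in hcr1-2 and 760 (4.54%) lower. The 95% interval of a difference reached 0.31 to either side in the median row.

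Pairs of arrays correlated across genes with Pearson's r between 0.984 and 0.993, as a description, since genes are not independent. Array 1 of hcr1-2 stood apart from the rest, with a limma quality weight of 0.472, where the other arrays had 0.785 to 1.47. The median SD of a row was 0.169 in hcr1-2, 0.144 in hcr1-1 and 0.137 in Col-0. Many known genes had no named row, and every list below covers only a part of its pathway.

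The HCR1 row held the largest difference in favour of hcr1-2 among the 16746 rows. The signal of HCR1 was 4.24, 4.38 and 4.30 in hcr1-2 roots, against 3.46, 3.25 and 2.36 in hcr1-1 roots and 4.60, 4.85 and 4.88 in Col-0 roots. The 3 lines did not overlap: every hcr1-2 array lay above every hcr1-1 array and below every Col-0 array. The difference between hcr1-2 and hcr1-1 was 1.28 (SE 0.23, 95% interval 0.78 to 1.78), or 2.43-fold, with an adjusted p of 0.719 in limma. It was 0.95 without hcr1-1 array 3 and 1.5 without hcr1-1 array 1. Against Col-0 the mean was 0.48 lower in hcr1-2 and 1.76 lower in hcr1-1, in comparisons that share the Col-0 arrays. The gene model of AT3G24730 overlaps that of HCR1, and whether their probes lie in the shared stretch is not given in the sources used here. AT3G24730 gave 3.59, 3.35 and 3.95 in hcr1-2 roots, against 3.89, 4.29 and 4.27 in hcr1-1 roots and 4.69, 4.41 and 4.58 in Col-0 roots. Its difference was -0.52 (SE 0.17), opposite in sign to that of HCR1, and 1 hcr1-2 array lay within the range of the hcr1-1 arrays.

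**Figure D1:**
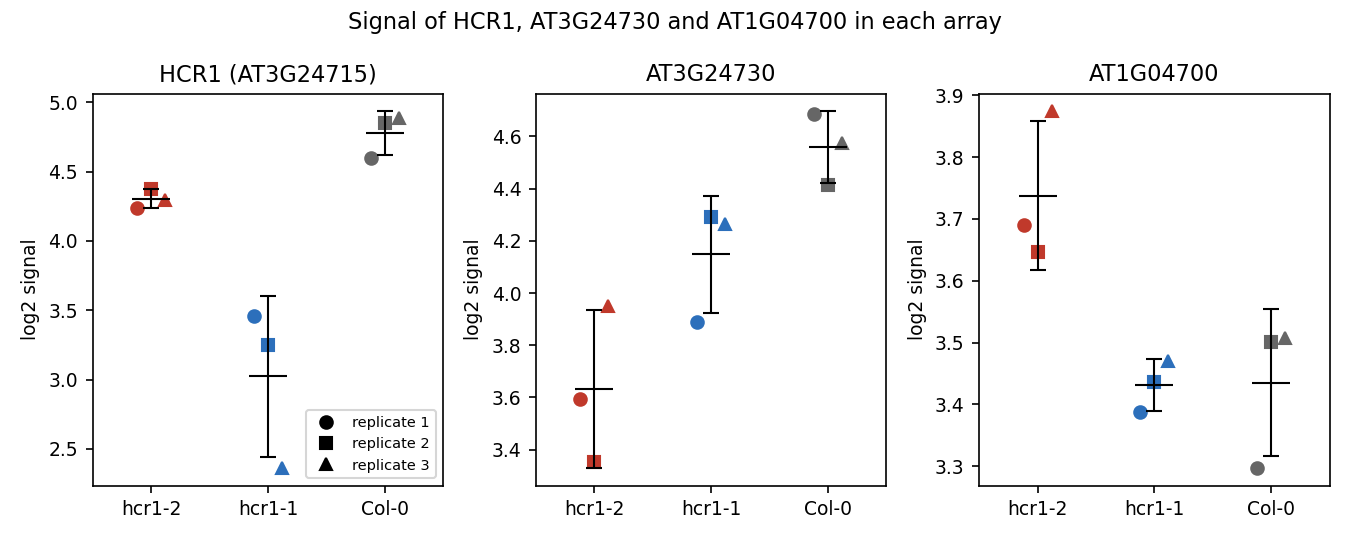
Log2 signal of HCR1, AT3G24730 and AT1G04700 in each array of hcr1-2, hcr1-1 and Col-0; symbols mark replicate numbers, and the long bar and whiskers are the mean and SD of 3 arrays. HCR1 separates all 3 lines, with hcr1-1 lowest, while AT3G24730 is lower in hcr1-2 on average and AT1G04700 is higher in hcr1-2 than in every hcr1-1 array.

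The surroundings of HCR1 showed little beside this pair. Of the 40 genes nearest to it in the order of the annotation, 20 on each side, 21 were measured, with 12 higher and 9 lower in hcr1-2, where 51.8% of all rows were higher and 48.2% lower. TRM34 alone of the 21 had arrays that did not overlap, against 9.85% of all rows, with a difference of 0.24 at a dim signal. The rest apart from AT3G24730 lay between -0.25 and 0.28. Among the 7 Raf-like kinases listed in HCR1's subgroup, all of them measured, AT1G04700 was the other one with separate arrays. With HCR1 itself, 2 of the 7 were thus higher without overlap (28.6%, against 5.31% of all rows). HCR1 is the mutated gene around which the list was drawn up, so this share includes it by construction and tests nothing. AT1G04700 had 3.69, 3.65 and 3.87 in hcr1-2 roots, against 3.39, 3.44 and 3.47 in hcr1-1 roots and 3.30, 3.50 and 3.51 in Col-0 roots. Its difference was 0.31 (SE 0.11, adjusted p = 0.917 in limma). The hcr1-1 arrays of this gene lay within the range of the Col-0 arrays. AT5G57610, AT1G16270, AT3G46920, AT2G35050 and AT1G79570 differed by -0.09 to 0.04.

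Many rows of the mitochondrial sequence copied in chromosome 2 were lower in hcr1-2 than in hcr1-1. Of 88 rows of AT2G07 loci, 70 were lower in hcr1-2 and 42 had arrays that did not overlap (47.7%, against 4.54% of all rows). At an unadjusted p under 0.05 there were 36 lower rows and 1 higher row, where 2.31% of all rows were lower and 3.02% higher. None was called after adjustment. Of the 70 lower rows, 63 were of loci in the stretch numbered from AT2G07667 to AT2G07830, and 7 were of AT2G07 loci outside it. The stretch held 68 rows of 51 loci, and its bounds were chosen after the data were seen. The counts within and outside it therefore describe these data and test nothing. In 41 of its lower rows the lines did not overlap, and the median difference over the 68 rows was -0.31, against 0.0066 over all rows. The other 20 rows of AT2G07 loci had a median of 0.08, with 13 higher and 7 lower. Among the rows of AT2G07 loci and mitochondrial genes together, 10 held the same values as another row in all arrays, and the rows share sequence, so they are not independent of one another.

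Averaged over the 68 rows of the stretch, the hcr1-2 arrays stood at 6.50, 6.59 and 6.69, against 7.08, 6.80 and 6.82 for the hcr1-1 arrays and 6.67, 6.61 and 6.58 for the Col-0 arrays. The mutant lines did not overlap, and the Col-0 arrays lay within the range of hcr1-2. Set against Col-0, the median row was 0.04 lower in hcr1-2 and 0.32 higher in hcr1-1, in comparisons that share the Col-0 arrays. All 3 hcr1-1 arrays lay above all 3 Col-0 arrays in 44 of the 68 rows (64.7%, against 5.18% of all rows). In 7 rows the hcr1-2 arrays were all lower than the lowest Col-0 array (10.3%, against 4.34%). The level of hcr1-1, rather than that of hcr1-2, thus stood away from the wild type in most of these rows.

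AT2G07722 had the smallest p of the stretch. Its brightest row gave 8.70, 8.80 and 9.12 in hcr1-2 roots, against 9.74, 9.49 and 9.41 in hcr1-1 roots and 9.02, 8.89 and 8.87 in Col-0 roots. The difference was -0.67 (SE 0.14, adjusted p = 0.744 in limma), with no overlap of hcr1-2 and hcr1-1 and with hcr1-2 spanning the Col-0 values. AT2G07672 gave 5.87, 5.96 and 6.55 in hcr1-2 roots, against 7.35, 6.87 and 6.57 in hcr1-1 roots, a difference of -0.80 (SE 0.22). AT2G07776 stood at 5.53, 6.10 and 5.79 in hcr1-2 roots, against 6.90, 6.36 and 6.46 in hcr1-1 roots, a difference of -0.77 (SE 0.17). In both genes array 1 of hcr1-1 was the highest of the 9. AT2G07667 showed tight arrays, with 4.11, 4.13 and 4.17 in hcr1-2 roots, against 4.63, 4.55 and 4.63 in hcr1-1 roots and 4.10, 4.24 and 4.04 in Col-0 roots. The difference was -0.47 (SE 0.10), and the hcr1-2 arrays lay within the range of Col-0. AT2G07825, AT2G07827, AT2G07772 and AT2G07713 differed by -0.58, -0.65, -0.66 and -0.56, each without overlap of the lines. AT2G07772 differed by -0.36 without hcr1-2 array 1. AT2G07440, outside the stretch, gave 3.67, 3.21 and 3.52 in hcr1-2 roots, against 3.97, 4.24 and 4.04 in hcr1-1 roots, a difference of -0.62 (SE 0.14).

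Rows that the array names by the genes of the mitochondrial genome itself went the same way with smaller differences. All 24 were lower in hcr1-2, with a median of -0.16 and a range of -0.73 to -0.01. In 10 of them (41.7%, against 4.54% of all rows) the lines did not overlap. An unadjusted p under 0.05 was met by 9, where 2.31% of all rows were lower at that p. This list was added after its values were seen. Its array means were 8.83, 8.93 and 9.07 in hcr1-2 roots, against 9.28, 9.09 and 9.15 in hcr1-1 roots and 9.04, 9.05 and 8.93 in Col-0 roots. The lines were separated by the small gap between hcr1-2 array 3 and hcr1-1 array 2. The median was -0.10 without hcr1-2 array 1 and -0.24 without hcr1-2 array 3, and stayed below 0 without each of the 6 mutant arrays. Against Col-0 the median row was 0.06 lower in hcr1-2 and 0.17 higher in hcr1-1. All 3 hcr1-1 arrays lay above the Col-0 arrays in 16 of 24 rows (66.7%, against 5.18% of all rows).

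Among the single mitochondrial genes, ccb206, which serves cytochrome c assembly, had 6.61, 6.66 and 6.84 in hcr1-2 roots, against 7.30, 6.85 and 7.09 in hcr1-1 roots and 6.79, 6.83 and 6.72 in Col-0 roots. Its difference was -0.38 (SE 0.13), by a narrow gap between the lines. The maturase gene matR, which is needed for intron splicing, stood at 8.43, 8.48 and 8.63 in hcr1-2 roots, against 9.04, 8.69 and 8.78 in hcr1-1 roots, a difference of -0.33 (SE 0.12). The genes named nad encode subunits of respiratory complex I. The 7 rows of nad1 ranged from -0.73 to -0.06. In 5 of them the lines did not overlap, where 4.54% of all rows were lower without overlap. nad6, nad5 and nad7 differed by -0.17, -0.15 and -0.15 in their brightest rows, and the other nad5 row by -0.25 without overlap. The cytochrome oxidase gene cox1 and the ATP synthase gene atp1, which the rule for named genes does not pick, differed by -0.01 and -0.02. The rows named for 1 organelle genome thus did not shift by a common amount. Since the copy in chromosome 2 matches the organelle's sequence, signal from AT2G07 loci and from mitochondrial genes cannot be told apart.

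Chloroplast genes, the other organelle set on the array, did not separate the lines. Of 63 rows, 51 were lower in hcr1-2 with a median of -0.05, and 0 of them had arrays that did not overlap, against 9.85% of all rows. The array means were 9.07, 9.18 and 9.30 in hcr1-2 roots, against 9.30, 9.18 and 9.22 in hcr1-1 roots and 9.26, 9.21 and 9.17 in Col-0 roots. The arrays of hcr1-2 thus covered the whole range of hcr1-1, and the median was 0.01 after quantile normalization, of the opposite sign, and -0.00017 without hcr1-2 array 1.

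**Figure D2:**
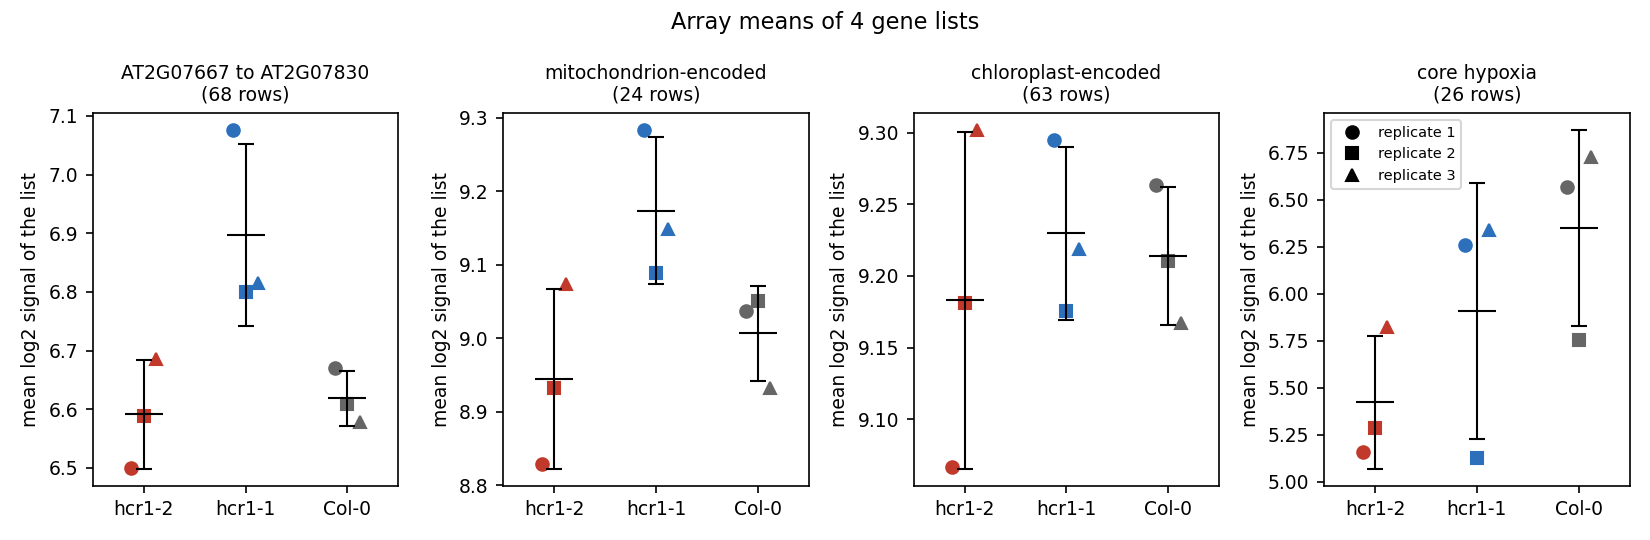
Mean log2 signal of 4 gene lists in each array of hcr1-2, hcr1-1 and Col-0, with the mean and SD of 3 arrays. The hcr1-2 arrays lie below all hcr1-1 arrays for the AT2G07667 to AT2G07830 stretch and for the mitochondrion-encoded rows, and overlap with hcr1-1 for the chloroplast and core hypoxia lists. The stretch and the mitochondrion-encoded list were chosen after their values were seen.

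Core hypoxia genes were lower on average in hcr1-2 than in hcr1-1, but 1 array of hcr1-1 stood with the hcr1-2 arrays. Of 51 listed genes 26 were measured, and 23 of those were lower in hcr1-2 with a median difference of -0.45. At an unadjusted p under 0.05 there was 1 gene, AT5G42200, where 2.31% of all rows were lower at that p. AT5G42200 was also the only one whose lines did not overlap (3.85%, against 4.54% of all rows). Averaged over the list, the hcr1-2 arrays stood at 5.16, 5.29 and 5.82, against 6.26, 5.13 and 6.34 for the hcr1-1 arrays and 6.57, 5.76 and 6.73 for the Col-0 arrays. Array 2 of hcr1-1 was the lowest of the 9 arrays, and it was the lowest of the hcr1-1 arrays in 25 of the 26 genes. In 22 genes all hcr1-2 arrays lay below arrays 1 and 3 of hcr1-1. That count sets aside hcr1-1 array 2 after its values were seen, and the matching share of all rows was not computed, so it only describes the list. Array 2 was also the lowest of the Col-0 arrays. The median was -0.80 without hcr1-1 array 2 and -0.28 without either hcr1-1 array 1 or array 3. The Col-0 mean was the highest of the 3 lines in 24 genes, and the median row was 0.85 below Col-0 in hcr1-2 and 0.45 below it in hcr1-1, in comparisons that share the Col-0 arrays. In whole roots, fewer responding cells and less RNA per cell cannot be told apart.

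The largest negative difference of all rows was that of AT5G10040, a core hypoxia gene. AT5G10040 gave 5.95, 6.03 and 7.96 in hcr1-2 roots, against 9.05, 6.20 and 8.70 in hcr1-1 roots and 9.26, 8.0 and 9.36 in Col-0 roots. Its difference of -1.34 (SE 0.72, adjusted p = 0.923 in limma) came with an interval of -2.90 to 0.23, since each mutant line held both high and low arrays. AT3G29970 differed by -1.04 (SE 0.67) and AT3G23170 by -1.0 (SE 0.55). CML38, a calmodulin-like calcium sensor, differed by -0.79 (SE 0.50), HRA1, which attenuates the hypoxia response, by -0.55 (SE 0.40), and the alanine aminotransferase AlaAT1 by -0.62 (SE 0.35). AT3G29970, CML38 and HRA1 were chosen after their values were seen. In each of these genes array 2 of hcr1-1 lay inside or below the range of hcr1-2. AT5G42200 differed from them, with 4.0, 3.86 and 3.89 in hcr1-2 roots, against 4.82, 4.06 and 4.52 in hcr1-1 roots and 4.89, 4.26 and 5.27 in Col-0 roots. Its difference was -0.55 (SE 0.24). The genes AT1G19530, AT1G10140 and AT5G45960 were the 3 higher ones, by 0.01, 0.01 and 0.05.

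Glycolysis and fermentation genes gave 9 measured of 27 listed, with 7 lower in hcr1-2 and a median of -0.15, and none had an unadjusted p under 0.05. The pyruvate decarboxylase gene PDC2 differed by -0.35 (SE 0.27) and the glyceraldehyde-3-phosphate dehydrogenase gene GAPC2 by -0.15 (SE 0.13). The median was -0.03 without hcr1-1 array 3 and -0.24 without hcr1-1 array 2. Heat shock and chaperone genes gave 8 of 25, with 6 lower and a median of -0.22. AT5G48570 had 5.33, 5.24 and 5.92 in hcr1-2 roots, against 6.06, 5.73 and 6.12 in hcr1-1 roots, a difference of -0.47 (SE 0.20) with hcr1-2 array 3 inside the range of hcr1-1. Array 2 of hcr1-1 was again low in this list, and the median was -0.40 without it, -0.11 without hcr1-1 array 1 and -0.13 without hcr1-1 array 3.

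**Figure D3:**
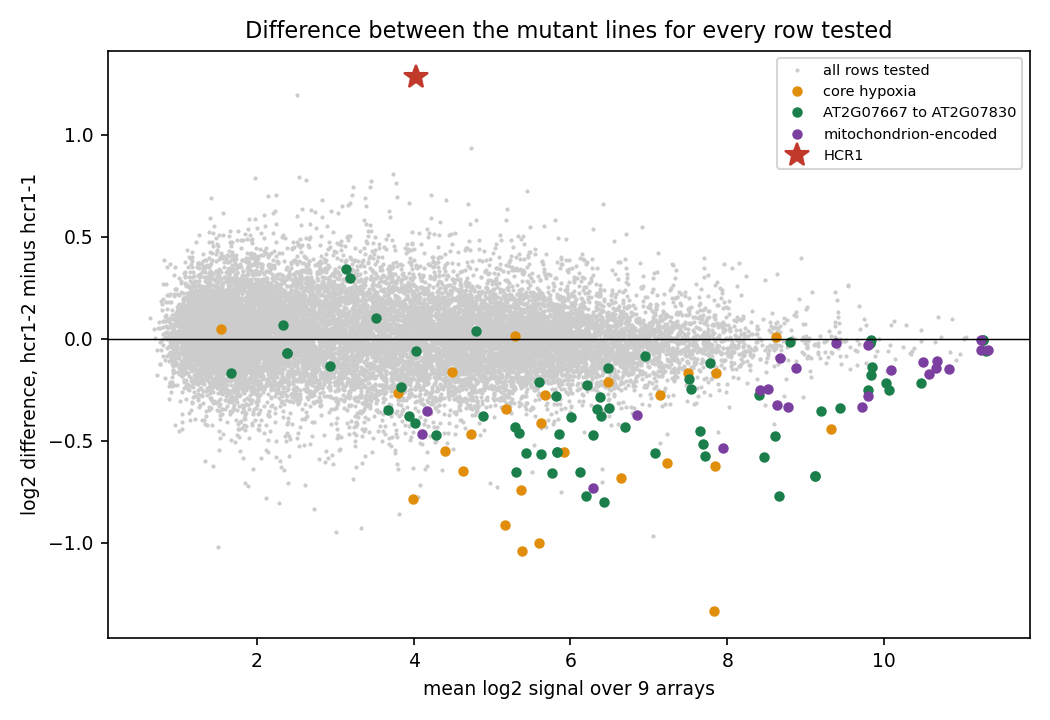
Log2 difference, hcr1-2 minus hcr1-1, against the mean log2 signal over 9 arrays for the 16746 rows tested, with core hypoxia genes, the AT2G07667 to AT2G07830 stretch, mitochondrion-encoded genes and HCR1 marked. HCR1 lies at 1.28 above the rest, and the marked lists lie mostly below 0, with 23 of 26, 63 of 68 and 24 of 24 rows lower in hcr1-2. The stretch and the mitochondrion-encoded list were chosen after their values were seen.

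Over all rows, these groups among them, differences of more than 1.5-fold were few. In all, 46 rows were higher and 57 lower in hcr1-2 by that size, of which 29 and 34 also had arrays that did not overlap. Of the 57 lower rows, 10 were of core hypoxia genes and 10 of AT2G07 loci or mitochondrial genes. Among the 34 lower rows without overlap, 10 belonged to AT2G07 loci or mitochondrial genes and 0 to the core hypoxia list. These 10 rows are not 10 separate genes, since AT2G07722 and AT2G07776 were each on more than 1 of them. Of the 16746 rows, the core hypoxia list held 26, AT2G07 loci 88 and mitochondrial genes 24. With only 26 rows, a count of 0 says little about the core list. A difference of more than 2-fold was met by 2 rows higher and 4 rows lower. In the 29 higher rows the Col-0 mean lay between the lines in 23, and nearer to hcr1-1 in 19. In the 34 lower rows it lay between the lines in 27, and nearer to hcr1-2 in 22. Neither line was thus the one that stood away from Col-0 in all of these genes.

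Next to HCR1, the higher genes with the smallest p were AT1G44030, AT3G27490, AT1G49180 and AT3G47050. AT1G44030 gave 4.96, 5.41 and 5.29 in hcr1-2 roots, against 4.31, 4.45 and 4.10 in hcr1-1 roots and 4.52, 5.04 and 4.56 in Col-0 roots. Its difference was 0.93 (SE 0.17, adjusted p = 0.719 in limma), and the Col-0 arrays lay above hcr1-1 and reached into the range of hcr1-2. AT3G27490 gave 4.58, 4.68 and 4.43 in hcr1-2 roots, against 3.77, 3.93 and 3.89 in hcr1-1 roots, a difference of 0.70 (SE 0.13). AT1G49180 stood at 4.10, 4.29 and 3.76 in hcr1-2 roots, against 2.96, 3.19 and 3.58 in hcr1-1 roots and 3.95, 3.87 and 3.90 in Col-0 roots. The difference of 0.81 (SE 0.17) was thus one in which hcr1-1 was the line below the wild type. AT3G47050 gave 4.30, 3.96 and 4.39 in hcr1-2 roots, against 3.28, 3.61 and 3.46 in hcr1-1 roots and 3.43, 3.63 and 3.95 in Col-0 roots, and there hcr1-2 was the line above it. NRPD2B, named for a subunit of plant nuclear RNA polymerases, had 3.01, 2.89 and 2.99 in hcr1-2 roots, against 2.36, 2.42 and 2.22 in hcr1-1 roots and 2.88, 2.99 and 2.47 in Col-0 roots. Its difference was 0.63 (SE 0.14). The signal was dim, with a mean of 2.69 over all arrays, against 3.51 for the median row. AT1G58120, AT4G17590, AT2G37530 and AT4G12545 differed by 0.51, 0.50, 0.50 and 0.58, and the first 3 of these had dim signals below 2.4 in all arrays.

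Among the lower genes, AT3G28820 had the smallest p of all rows, at a dim signal. It gave 1.18, 1.08 and 1.21 in hcr1-2 roots, against 1.83, 1.79 and 1.71 in hcr1-1 roots and 1.27, 1.52 and 1.42 in Col-0 roots. The difference of -0.62 (SE 0.11) separated all 3 lines, with Col-0 between the mutants. AT1G56120 gave 3.31, 3.56 and 3.50 in hcr1-2 roots, against 4.16, 3.91 and 4.21 in hcr1-1 roots and 3.72, 3.90 and 3.90 in Col-0 roots, a difference of -0.64 (SE 0.12). The same order held here, with every Col-0 array between the mutant lines. AT5G39150 had the largest separated difference among lower rows, at -1.02 (SE 0.22), with 0.71, 1.04 and 1.62 in hcr1-2 roots, against 1.95, 2.06 and 2.42 in hcr1-1 roots and 1.01, 1.24 and 1.46 in Col-0 roots. AT4G07940 and AT1G76820 differed by -0.72 and -0.63, also at dim signals.

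Of brighter genes, STZ, a zinc finger repressor that answers to salt, cold and drought, gave 4.57, 4.81 and 4.89 in hcr1-2 roots, against 5.96, 5.57 and 4.94 in hcr1-1 roots and 5.22, 4.97 and 4.69 in Col-0 roots. Its difference was -0.73 (SE 0.23), with widely spread hcr1-1 arrays, and it was -0.49 without hcr1-1 array 1. AT1G49560 gave 3.13, 3.47 and 3.93 in hcr1-2 roots, against 4.58, 4.26 and 4.03 in hcr1-1 roots and 4.45, 4.06 and 4.58 in Col-0 roots. Here, with a difference of -0.78 (SE 0.21), hcr1-2 was the line below Col-0. AT1G52700, AT1G43910, AT1G65346 and AT5G51500 differed by -0.71, -0.64, -0.64 and -0.64. Among higher genes of this kind, AT3G27510, AT3G50180 and AT3G46800 differed by 0.64, 0.63 and 0.59.

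**Figure D4:**
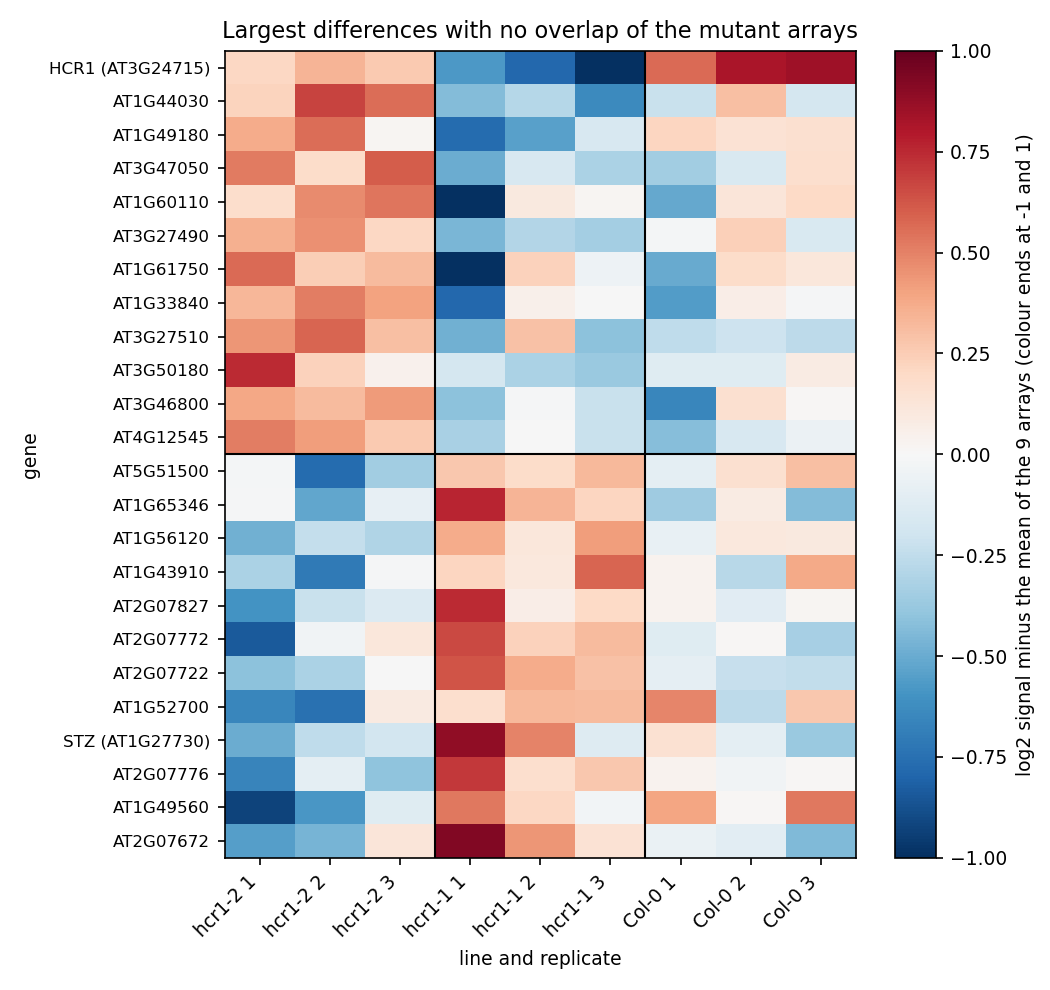
Log2 signal minus the mean of the 9 arrays for the 12 genes per direction with the largest difference among rows whose hcr1-2 and hcr1-1 arrays do not overlap and whose mean signal is at or above the median row. Columns are arrays of hcr1-2, hcr1-1 and Col-0; array 1 of hcr1-1 and of Col-0 are both low in AT1G60110, AT1G61750 and AT1G33840, and array 1 of hcr1-1 is the highest of its line in the 5 AT2G07 genes shown.

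In 3 of the higher genes a single hcr1-1 array made up much of the difference. AT1G60110 gave 5.62, 5.92 and 5.99 in hcr1-2 roots, against 4.34, 5.55 and 5.47 in hcr1-1 roots and 4.94, 5.57 and 5.65 in Col-0 roots. Its difference was 0.72 (SE 0.29) with all arrays and 0.33 without hcr1-1 array 1. AT1G61750 differed by 0.68 (SE 0.29), and by 0.28 without that array. AT1G33840 gave 6.74, 6.92 and 6.82 in hcr1-2 roots, against 5.63, 6.47 and 6.41 in hcr1-1 roots and 5.85, 6.48 and 6.40 in Col-0 roots, a difference of 0.66 (SE 0.22) that was 0.39 without it. In these genes array 1 was the lowest of Col-0 as well as of hcr1-1. The labels do not say whether arrays of the same number shared a day or a batch.

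Along the chromosomes, the medians of windows of 10 tested genes lay below -0.14 in 1% and above 0.16 in 1% of 16310 windows. The most extreme windows were in the AT2G07 stretch, with -0.47 from AT2G07722 to AT2G07787 and -0.43 from AT2G07798 to AT2G07715 in the order of the annotation. The third was on chromosome 1, from AT1G33811 to AT1G33900, with a median of 0.33 and 9 of 10 genes higher in hcr1-2. The windows named here were picked for the size of their medians, so counts within them describe these data and test nothing. With 5.31% of all rows higher in hcr1-2 without overlap, the lines did not overlap in 3 genes of the chromosome 1 window. They were AT1G33840, given above, AT1G33870 with 0.56 (SE 0.22) and AT1G33880 with 0.35 (SE 0.14). AT1G33870 gave 5.18, 4.90 and 5.30 in hcr1-2 roots, against 4.26, 4.65 and 4.78 in hcr1-1 roots and 3.91, 4.77 and 4.70 in Col-0 roots. AT1G33880 gave 5.59, 5.40 and 5.42 in hcr1-2 roots, against 4.86, 5.35 and 5.15 in hcr1-1 roots and 5.0, 5.23 and 5.25 in Col-0 roots. In all 3 genes the hcr1-2 arrays lay above those of hcr1-1 and of Col-0, and array 1 was the lowest of both other lines. These genes neighbour each other, and signal shared among similar neighbours was not tested. After 2 more windows of AT2G07 loci, with -0.32 and -0.27, came the window from AT5G06610 to AT5G06800, with 0.24. AT1G33870 and AT1G33880 were chosen after their values were seen.

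Families named by the annotation showed members on both sides. Cytochrome P450 genes, which encode oxidising enzymes of secondary metabolism, gave 15 higher and 11 lower of 26, with a median of 0.06 that was -0.03 without hcr1-2 array 1. CYP71B21 had 3.19, 2.77 and 3.13 in hcr1-2 roots, against 3.66, 3.49 and 3.50 in hcr1-1 roots and 3.29, 3.10 and 3.15 in Col-0 roots, a difference of -0.53 (SE 0.13, adjusted p = 0.744 in limma). Its relatives CYP71B23, CYP71B29 and CYP71B37 differed the other way, by 0.43, 0.44 and 0.34. CYP71B37 had no overlap of the lines, at signals below 2.4, while CYP71B23 and CYP71B29 overlapped. In CYP71B21 hcr1-1 was the line that stood away from Col-0.

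Expansins and other cell wall proteins, which loosen or build the wall, gave 14 higher and 13 lower of 27, with a median of 0.02 that was -0.08 without hcr1-2 array 1. EXLA1, an expansin-like gene, stood at 4.04, 4.33 and 4.07 in hcr1-2 roots, against 4.76, 4.79 and 4.42 in hcr1-1 roots and 4.05, 3.91 and 4.11 in Col-0 roots. Its difference was -0.51 (SE 0.13), with hcr1-1 above both other lines. EXPB1, a beta-expansin, gave 5.83, 5.83 and 5.74 in hcr1-2 roots, against 5.26, 5.53 and 5.51 in hcr1-1 roots and 5.71, 5.79 and 5.63 in Col-0 roots. Its difference was 0.37 (SE 0.11), with hcr1-1 below both other lines. EXPA8, an alpha-expansin, differed by -0.43 (SE 0.16) with overlapping arrays, and EXLA3 and EXPA21 by -0.27 and 0.23.

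Of 11 transporters, 7 were higher in hcr1-2, with a median of 0.10 that was -0.02 without hcr1-1 array 1. The high-affinity nitrate transporter gene NRT2.5 had 2.36, 2.26 and 2.29 in hcr1-2 roots, against 1.72, 2.08 and 1.82 in hcr1-1 roots and 2.15, 1.98 and 2.22 in Col-0 roots, a difference of 0.43 (SE 0.12). Its lines did not overlap, at a dim signal. OCT5, an organic cation carrier, differed by 0.34 (SE 0.14). The glucosinolate transporter gene GTR1 and the nitrate excretion gene NAXT1 differed by 0.24 and 0.22 with overlapping arrays.

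UDP-glycosyltransferase genes, which attach sugars to small molecules, gave 28 higher and 22 lower of 50, with a median of 0.03. UGT71C1 had 5.17, 5.60 and 5.41 in hcr1-2 roots, against 4.62, 5.20 and 4.90 in hcr1-1 roots, a difference of 0.49 (SE 0.17) with hcr1-2 array 1 inside the range of hcr1-1. UGT74D1 and UGT78D2 had separate lines (4% of the list, against 5.31% of all rows higher without overlap), with differences of 0.35 and 0.21. Defensin-like genes gave 47 higher and 36 lower of 83, with a median of 0.02 that was -0.02 without hcr1-2 array 1. LCR33, LCR21 and LCR29 differed by 0.37, 0.35 and 0.28 at signals under 2. LCR69 was bright, with 8.11, 8.07 and 7.94 in hcr1-2 roots, against 7.94, 7.93 and 7.32 in hcr1-1 roots and 7.36, 7.60 and 7.56 in Col-0 roots, a difference of 0.31 (SE 0.16). All 6 lectin genes were higher in hcr1-2, with a median of 0.09, which was 0.24 without hcr1-1 array 2. Of them 0 had separate lines, against 9.85% of all rows. JAL31 and JAL34 differed most among them, by 0.29 and 0.20.

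Peroxidase genes were split evenly, with 5 higher and 5 lower of 10. AT5G64120 had the one separate pair of lines there (10% of the list, against 4.54% of all rows lower without overlap). It gave 5.17, 5.59 and 5.35 in hcr1-2 roots, against 5.79, 5.68 and 5.65 in hcr1-1 roots, a difference of -0.33 (SE 0.13). Histone and chromatin genes gave 3 higher and 4 lower of 7, and MGH3, a histone H3 variant gene of the male germ line, differed by 0.48 (SE 0.19) with overlapping arrays. Glycosyl hydrolase genes gave 9 higher and 10 lower of 19, all between -0.21 and 0.26. The single F-box gene named as such differed by 0.05.

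Of the nutrient and hormone lists, few members were on the annotated rows. Potassium transport had 1 of 18, AT1G60160, which gave 4.43, 4.31 and 4.24 in hcr1-2 roots, against 4.49, 4.87 and 4.56 in hcr1-1 roots and 4.82, 4.75 and 4.86 in Col-0 roots. Its difference was -0.31 (SE 0.12, adjusted p = 0.923 in limma), without overlap of the lines, and -0.20 without hcr1-1 array 2. Iron deficiency genes gave 6 higher and 1 lower of 7, with a median of 0.06 that was -0.02 without hcr1-1 array 2. AT3G12900 of that list had 6.15, 6.23 and 6.38 in hcr1-2 roots, against 5.10, 5.59 and 6.43 in hcr1-1 roots and 4.89, 4.53 and 5.72 in Col-0 roots, a difference of 0.55 (SE 0.33). The lower member was PYE, a transcription factor gene of the iron response, with -0.25 (SE 0.21). Both genes overlapped between the lines.

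Genes of abscisic acid and water deficit gave 2 higher and 4 lower of 6, with a median of -0.17, and LTI30, a dehydrin gene, differed most, by -0.26 (SE 0.17). Endodermal barrier genes gave 2 higher and 1 lower of 3, among them the receptor kinase gene GSO1 with 0.15 (SE 0.14). Ethylene genes gave 3 of 3 higher by at most 0.03, including EIN3, the transcription factor of that pathway, with 0.01. Jasmonate and defence genes gave 2 higher and 1 lower of 3, and sulfur genes 2 and 2 of 4. In these 5 lists and in the iron list the arrays of the lines overlapped for every gene measured, where 9.85% of all rows did not overlap. None of the genes listed for aquaporins, oxygen sensing, nitrogen and phosphate was on a row paired with 1 gene, so these lists were not measured here. The median of the abscisic acid list was close to 0 without hcr1-1 array 1, and that of the endodermal list, 0.02 without the same array.

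Markers of other tissues were measured in part. Of the shoot markers, LHCB4.1 and RCA were measured, with differences of 0.19 and -0.0041, at log2 signals between 4.04 and 4.92, and whether they were detected could not be called. The root hair genes EXPA18 and EXPA7 differed by 0.34 and -0.03, and the xylem gene GUT2 by 0.09. The dividing cell genes AUR2 and AUR1, both aurora kinases, differed by 0.22 and 0.07, and the lines did not overlap in AUR2. Markers of phloem and root cap had 0 rows. The part of cell type in the results above was not tested.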

How the data were processed

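Root RNA of 9 samples was hybridised to Affymetrix Arabidopsis Gene 1.1 ST arrays, 1 per sample. The authors deposited log2 values, made with Affymetrix Expression Console and RMA per the submitters' processing notes; their versions, settings and the build are not given in the sources used here. RMA equalises the arrays, so a difference in total signal is not seen, and rows could not be called detected. Precision is limited by the number of arrays. The platform annotation gave the gene names, updated from a RefSeq gene table (TAIR10.1) used for names and gene order. Of 38408 rows, 16746 had 1 gene, 758 several and 20904 none; 16601 of the first matched the table, and 162 genes had several rows. The link of HCR1 to AT3G24715 is background knowledge.

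Groups came from the titles. limma 3.58.1 in R 4.3.3 (lmFit, contrasts, eBayes) was fitted to all 9 arrays, and p-values are two-sided with Benjamini-Hochberg adjustment over the rows tested. The test was tried on simulated data. Gene lists are described by counts and medians, with no set test and no test of an array mean. The members, lists and rules were chosen with earlier results of these data known. Named genes were HCR1 and its neighbours, the 10 smallest p per direction, the 12 largest differences per direction without overlap at or above the median signal, and up to 6 members per list; where a gene has several rows, the brightest is used for its name. The rule for pairing by replicate number (every correlation of deviations over 0.1) was not met: same-numbered arrays of hcr1-2 and hcr1-1 gave -0.04, 0.003 and 0.16, those of hcr1-2 and Col-0 gave -0.10, 0.07 and -0.19, and those of hcr1-1 and Col-0 gave 0.15, 0.08 and 0.0007. No batch label was available to test. Promoter and protein sequences were not used here.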

Additional observations from a re-analysis of the deposited data

How the results depend on the processing

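No gene was called under any of the alternatives run, and of 34 named genes all 570 values kept their direction. These genes were picked from the same data for a small p or a large difference, and their hcr1-2 and hcr1-1 arrays do not overlap. Leaving out an array could therefore not reverse them, and the kept direction is no test of them. The smallest adjusted p, 0.719 in the report, ranged from 0.0765 (trended and robust variances) to 0.9996 (core hypoxia array mean as covariate) over the refits, those on all rows or nuclear rows aside. With the replicate number as a block 0 genes were called, 938 had an unadjusted p under 0.05, the smallest adjusted p was 0.299, and not every array correlated best with its own number. Rows with an unadjusted p under 0.05 numbered 893, 643 without hcr1-1 replicate 1 and 1443 without hcr1-2 replicate 3. Leaving out rows below the median gave 941 rows without overlap, with 5.43% of the rows kept higher in hcr1-2 and 5.8% lower. The shares of all rows were 5.31% and 4.54%. At that p, this setting gave 275 higher and 278 lower rows (49.7% higher, against 56.7%). Its medians were -0.35 for AT2G07 loci, 0.20 for cytochrome P450 and 0.20 for lectin genes. The AT2G07667 to AT2G07830 loci alone, chosen after seeing the data, gave -0.31. With the core hypoxia mean as covariate, medians were 0.02 for that list, -0.0159 for glycolysis and -0.0476 for abscisic acid genes. That covariate is made from the core hypoxia genes themselves, so the small median of their list was fixed in advance and shows nothing about it. Leaving out 1 array moved the medians between -0.245 and -0.0327 for glycolysis, -0.205 and -0.00066 for abscisic acid, -0.0379 and 0.0141 for peroxidase, -0.0345 and 0.0607 for cytochrome P450, -0.0358 and 0.0515 for glycosyl hydrolase, 0.0695 and 0.237 for lectin, -0.0799 and 0.0652 for cell wall, -0.0164 and 0.133 for transporter, -0.00464 and 0.0992 for histone, and -0.0166 and 0.133 for iron genes. The cause was not tested. The search for a hypoxia motif in promoters was not run, since no promoter sequence was used here.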
